A study of Rattus norvegicus with 4 samples.

Results

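CXC chemokine ligands are small signalling proteins, and 9 rat genes of this family were followed here in NR8383 cells, a macrophage line established from normal rat lung lavage. They are Cxcl1, Cxcl2, Cxcl3, Cxcl6, Cxcl9, Cxcl10, Cxcl11, Cxcl12 and Cxcl16. The members were chosen by name, and their probes by a RefSeq accession that maps to one of these symbols. Of the 9 genes, 8 had at least 1 probe, out of 16581 named genes on the array. These 8 genes had 10 probes on 20 spots per array, which makes 80 spot values over 4 arrays. No accession on the array matched Cxcl3 in the gene table used, so it has no value here. That table may lack older accessions, so a probe designed on an older Cxcl3 record would be missed. An older accession on the array may be such a retired Cxcl3 record, and it was not named or used here.

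All 4 samples were NR8383 cells after 20 passages, grown for 48 h and then exposed for 4 h to NRCWE049, a carbon nanotube with NH2-functionalized surface, at a dose of 1.2 cm²/cm². They form 1 group of 4 replicates, described by the series as biological. The series also describes cells incubated without nanotubes, and these were not analysed here. The values therefore give the state of exposed cells and hold no change caused by exposure. The material is 1 cell line, and the arrays measured total RNA, so fewer expressing cells and less RNA per cell cannot be told apart.

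CXC ligands are secreted or shed proteins that guide leukocytes through G protein-coupled receptors. Those with a glutamate-leucine-arginine motif before the first cysteines, such as Cxcl1, Cxcl2, Cxcl3 and Cxcl6, attract neutrophils, and macrophages transcribe several of them through NF-kB after contact with microbes or particles. Cxcl9, Cxcl10 and Cxcl11 are interferon-induced ligands of the receptor CXCR3 on activated T cells. Cxcl12 is a stromal ligand of CXCR4, and Cxcl16 is a membrane-bound ligand of CXCR6 that can be shed from macrophages.

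Promoter sequences were taken from RefSeq (GRCr8 assembly) for 8 of the 9 genes and are shown for 4 of them. Cxcl2, Cxcl10 and Cxcl16 are shown because their RNA was well above background. Cxcl1 is shown because it lies next to Cxcl2 in the gene order of chromosome 14 and its RNA was not. Each window runs 5′ to 3′ from 250 bases before the annotated start to 50 bases after it. Capitals mark matches on either strand to the NF-kB motif GGGNNNTTCC or to the interferon-stimulated response element (ISRE) motif GAAANNGAAA, where N is any base. These coordinates belong to GRCr8 and not to rn4, the build named in the array's files.
Cxcl2, chr14:17467206-17467505, minus strand: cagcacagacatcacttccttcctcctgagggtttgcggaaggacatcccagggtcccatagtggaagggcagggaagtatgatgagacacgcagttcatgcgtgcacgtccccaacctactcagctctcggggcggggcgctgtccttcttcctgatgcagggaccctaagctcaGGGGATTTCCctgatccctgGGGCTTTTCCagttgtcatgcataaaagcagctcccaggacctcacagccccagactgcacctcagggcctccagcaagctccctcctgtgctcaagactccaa
Cxcl1, chr14:17479272-17479571, minus strand: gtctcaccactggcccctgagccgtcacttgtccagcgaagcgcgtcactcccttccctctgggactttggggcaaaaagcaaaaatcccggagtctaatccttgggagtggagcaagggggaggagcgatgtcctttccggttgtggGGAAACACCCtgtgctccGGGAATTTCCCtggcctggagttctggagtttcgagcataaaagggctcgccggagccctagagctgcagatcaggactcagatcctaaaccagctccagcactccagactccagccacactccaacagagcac
Cxcl10, chr14:15988816-15989115, plus strand: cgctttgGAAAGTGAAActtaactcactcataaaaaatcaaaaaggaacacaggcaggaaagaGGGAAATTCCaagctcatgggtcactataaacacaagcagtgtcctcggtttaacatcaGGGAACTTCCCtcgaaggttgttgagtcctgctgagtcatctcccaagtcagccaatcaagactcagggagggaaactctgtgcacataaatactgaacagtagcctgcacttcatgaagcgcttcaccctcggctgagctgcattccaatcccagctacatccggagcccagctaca
Cxcl16, chr10:55669901-55670200, minus strand: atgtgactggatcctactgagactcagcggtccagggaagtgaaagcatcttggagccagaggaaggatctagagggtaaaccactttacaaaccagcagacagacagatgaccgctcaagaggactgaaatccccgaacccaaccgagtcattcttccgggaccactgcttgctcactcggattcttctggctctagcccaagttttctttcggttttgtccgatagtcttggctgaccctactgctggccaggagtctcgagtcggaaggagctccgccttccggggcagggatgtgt

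The NF-kB motif was found in 5 of the 8 promoters, namely those of Cxcl1, Cxcl2, Cxcl6, Cxcl10 and Cxcl11, against 5.37% of 33469 promoters of the same length. In Cxcl2 the matches began 74 and 54 bases before the start. In Cxcl1 there were 2 places, with first bases 102 and 84 bases before the start, the second of which reads as a match on both strands. Cxcl10 also had 2 places, 187 and 128 bases before the start, the second again on both strands. In Cxcl10 an ISRE match lay 243 bases before the start, overlapping neither, and no other member promoter held that motif, which was found in 3.92% of all promoters. The interferon gamma-activated site motif TTCNNNGAA, which reads alike on both strands, was found in Cxcl9 and Cxcl11 and in 8.87% of all promoters, overlapping no other match. The Cxcl9 match lay at position 32 after the annotated start, inside the transcript, and the Cxcl11 match began 250 bases before the start, at the first base of the window. The promoters of Cxcl12 and Cxcl16 held none of these letters in this window. Matches were thus present in promoters of genes well above background (Cxcl2 and Cxcl10) and of genes that were not (Cxcl1, Cxcl6 and Cxcl11). A match describes letters and does not show that a factor binds.

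Cxcl2 and Cxcl16 stood well above background on each of the 4 arrays, as did Cxcl10 on the 3 arrays where its spot passed the outlier flags. None of the arrays had Cxcl1, Cxcl6, Cxcl9, Cxcl11 or Cxcl12 well above background. A gene counts as detected where at least 1 probe passed the scanner software's flag for a signal well above background, on most of its unflagged spots and on 4 of 4 arrays. By that rule 2 of 8 CXC ligand genes were detected, against 8713 of 16581 named genes (52.5%). Most of these ligands rest on 1 probe on 1 spot, and such a gene may be expressed although its spot is dim.

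**Figure D1:**
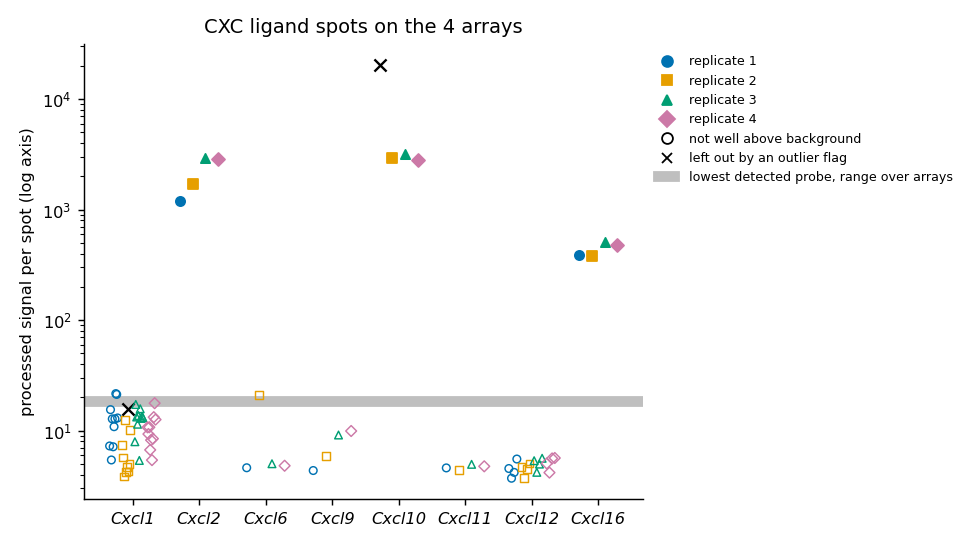
Processed signal (vertical, log axis) of every spot of the 8 CXC ligand genes, by replicate; open symbols were not well above background, crosses were left out by an outlier flag, and the grey band is the signal of the dimmest detected probe, 16.7 to 20.1 over the arrays. Cxcl2, Cxcl10 and Cxcl16 lie far above the band, and Cxcl10 has 1 cross at 20532 in replicate 1.

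Cxcl2, a neutrophil attractant, was the only detected gene of the 3 measured in the neutrophil-attracting group, and few genes differed as much between replicates. Its processed signal was 1201, 1693, 2927 and 2850 in replicates 1 to 4. Its level, the log2 signal minus its array's 75th percentile over probes detected on all arrays, was -0.71, -0.23, 0.23 and 0.25. Replicate 1 was lowest, replicate 2 between, and replicates 3 and 4 lay close together. The mean level was -0.12 ± 0.45 (SD, n = 4), and the highest level was 1.95-fold above the lowest.

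The spread of Cxcl2 was 3.62 times that expected for a gene of its brightness. The SD of 0.45 compares with an expected 0.126, and with a median SD of 0.151 over the 8713 detected genes, of which 2.53% had a larger SD than Cxcl2. Cxcl2 did not pass the test of variance (limma F test, unadjusted p = 0.0060, adjusted p = 0.969). The test sets a gene's residual variance against limma's intensity trend, with Benjamini-Hochberg adjustment over all detected genes. It asks only whether a spread is larger than expected, not whether it is smaller. That test passed 1 gene, Selenop, or 0.0115% of those tested, which is named after its values were seen and is no CXC ligand. Each gene has 3 residual degrees of freedom, so not passing does not show that its spread was ordinary. Without replicate 1 the Cxcl2 SD was 0.27 over the other 3 replicates. Agilent's own error estimate for the Cxcl2 spot was 10.0% of its signal on each array. That estimate was also 10% for the unflagged Cxcl10 spots and 10.05 to 10.07% for Cxcl16, so it was not particular to Cxcl2. The 63 detected spots within 5 rows and columns of the Cxcl2 spot deviated from their own means by a median of 0.08, -0.01, -0.01 and -0.04 in replicates 1 to 4. After correction by these neighbours the SD was 0.48.

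**Figure D2:**
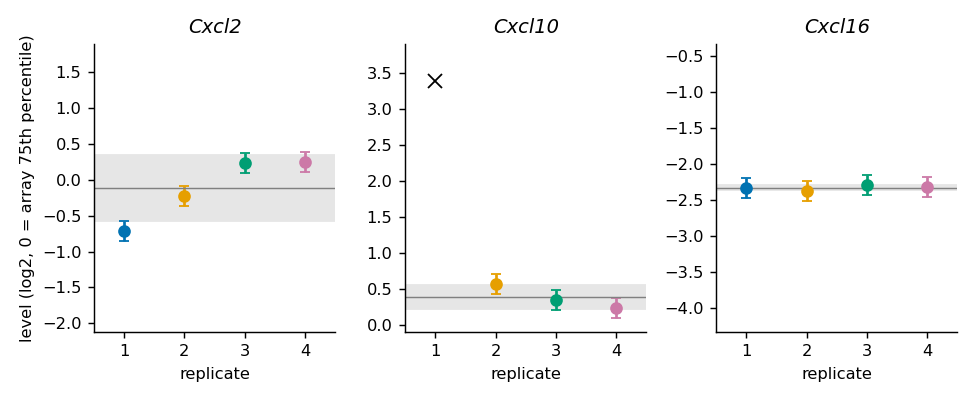
Level (log2 signal minus the array's 75th percentile over detected probes) of Cxcl2, Cxcl10 and Cxcl16 in replicates 1 to 4, on axes of equal span; bars are Agilent's error of the spot, the line is the mean and the band 1 SD of the replicates. Cxcl2 runs from -0.71 to 0.25 and Cxcl16 from -2.38 to -2.30, and the cross is the flagged Cxcl10 spot of replicate 1 at 3.38.

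Cxcl1, which encodes another neutrophil attractant and neighbours Cxcl2, was printed on 10 spots per array, more than any other member. None of these was well above background on any array. The mean signal over unflagged spots was 11.6, 5.89, 11.8 and 9.75 in replicates 1 to 4, and the highest spot of any array reached 21.6. Agilent's weaker flag, for a signal that is positive and significant against background, was set for 10 spots in replicate 1, for 4 of the 9 unflagged spots in replicate 2, for 9 in replicate 3 and for 10 in replicate 4. One spot of replicate 2, at a signal of 15.6, was left out as a population outlier, a flag for a spot that stands apart from its replicate spots. The mean signal was 0.328 to 0.696 times that of the dimmest detected probe of its array. The 308 negative control spots had median signals of 4.04, 4.17, 4.60 and 4.59 in replicates 1 to 4. Their highest signals were 47.83, 41.87, 18.45 and 21.83, and no Cxcl1 spot exceeded the highest on its array.

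Cxcl6 encodes a neutrophil attractant made mainly by epithelial and stromal cells, and its single spot was dim. The signal was 4.60, 21.1, 5.00 and 4.80 in replicates 1 to 4, and none passed the flag for well above background. Replicate 2 stood apart from the other 3 replicates, which lay near the negative controls. Its value was 1.17 times the signal of the dimmest detected probe of that array and passed the weaker flag for positive and significant signal. The negative control spots of that array had a median of 4.17 and a highest value of 41.9.

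Cxcl10, a CXCR3 ligand, was bright on 3 arrays and could not be read on the fourth. Its signal was 2932, 3166 and 2819 in replicates 2, 3 and 4, giving levels of 0.57, 0.34 and 0.23. Their mean was 0.38 ± 0.17 (SD, n = 3), with the highest level 1.26-fold above the lowest. The same value, 1.26-fold, was the median span over 4 replicates of all detected genes. In replicate 1 the spot read 20532, which is 7.003 times the median of the others, and Feature Extraction had flagged it as nonuniform, meaning that its pixels differed too much from each other. It was left out, so Cxcl10 missed the rule of 4 of 4 arrays.

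The flagged Cxcl10 spot lay in a line of flagged spots on the array of replicate 1. That array had 28 nonuniform spots, against 1, 2 and 2 in replicates 2 to 4. Within 20 rows and 2 columns of the Cxcl10 spot there were 11 other nonuniform spots, and all lay between 7 rows before and 12 rows after it and within 1 column. These spots held probes of other genes and 3 control probes. Their signals ran from 877 to 35910, all 11 were brighter than on each of the other arrays, and 8 of them were under 50 on each of the other arrays. The 3 spots that were brighter than 50 elsewhere read 1.58, 10.2 and 17.2 times their median on the other arrays. The 51 unflagged detected spots within 5 rows and columns deviated by a median of 0.01 there. The cause of the line was not tested.

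**Figure D3:**
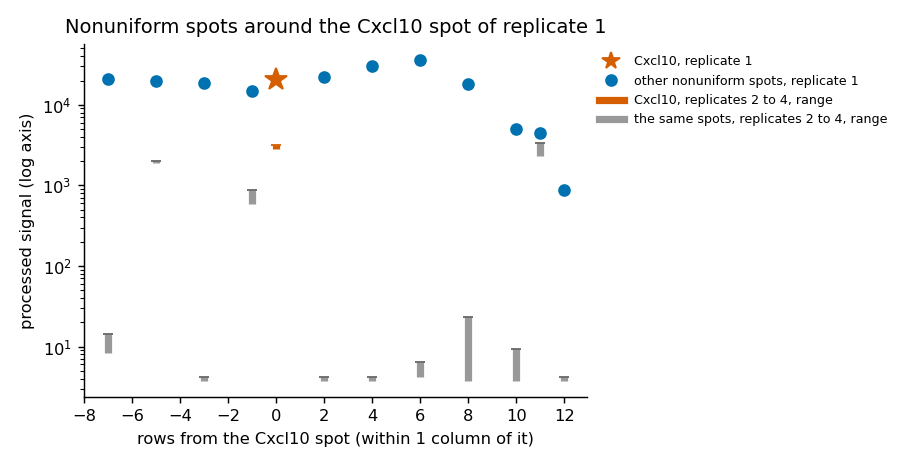
Processed signal (log axis) of the Cxcl10 spot and of the 11 other nonuniform spots near it on the array of replicate 1, by distance in rows; thick bars are the range of the same spots in replicates 2 to 4. On replicate 1 the spots read 877 to 35910 whatever they read elsewhere, and the Cxcl10 spot at 20532 lies among them.

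Keeping the flagged spot changed the account of Cxcl10. The level of replicate 1 would be 3.38, the mean over 4 arrays 1.13 and the SD 1.51, against an expected 0.116. Cxcl10 would then pass the variance test (limma, adjusted p = 0.0210), as 1 of 4 genes of 8719. Without replicate 1, Cxcl10 counted as detected, with an SD of 0.17 against an expected 0.0912, and it did not pass that test (limma, adjusted p = 0.928). The call for Cxcl10 thus rested on the single nonuniform spot.

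Cxcl9 and Cxcl11, the other CXCR3 ligands, were not well above background although both lie beside Cxcl10 in the gene order. Cxcl9 gave a signal of 4.35, 5.84, 9.11 and 9.91 in replicates 1 to 4, at 0.260 to 0.492 times the dimmest detected probe. It was the only member that counted as detected under the weaker flag and not under the main rule, and its signal lay near that of the negative controls in replicates 1 and 2. Cxcl11 gave 4.59, 4.40, 4.94 and 4.74, close to the negative controls on every array, and passed neither flag.

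Cxcl16, the membrane-bound ligand, was detected and varied less between replicates than Cxcl2. Its signal was 390, 381, 508 and 480 in replicates 1 to 4, and its level was -2.34, -2.38, -2.30 and -2.32. The rise in raw signal in replicates 3 and 4 matched that of the arrays as a whole, whose 75th percentiles were at 1970, 1980, 2493 and 2403. After scaling, the mean level was -2.33 ± 0.03 (SD, n = 4), with the highest 1.06-fold above the lowest. The SD was 0.02 without replicate 2, 0.07 with normexp background correction and 0.06 after correction by neighbouring spots. The expected SD at its brightness was 0.166, and 97.8% of detected genes had a larger SD. The variance test asks only for a spread above the expected one, so it could not pass Cxcl16 (limma, adjusted p = 0.9996). Whether so small a spread was unusual was not tested. The unscaled signals had a coefficient of variation of 14.5%.

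**Figure D4:**
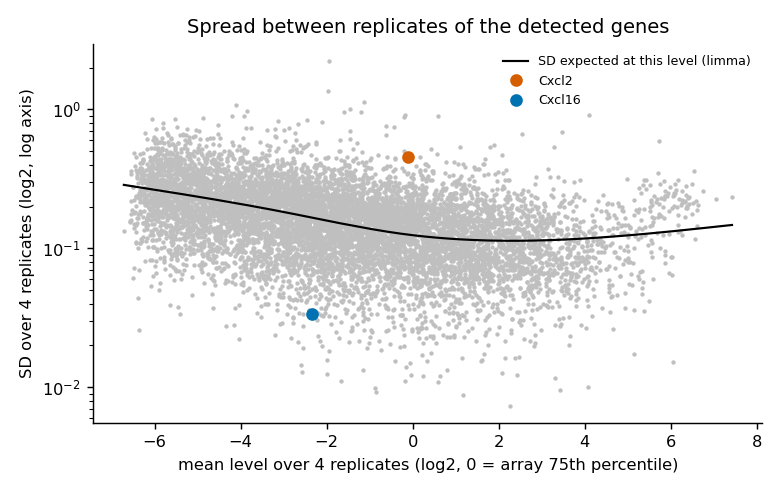
SD over 4 replicates (log axis) against mean level for the 8713 detected genes (grey), with the SD expected at each level (line). Cxcl2 lies above the line, at 0.45 against 0.126, and Cxcl16 below it, at 0.03 against 0.166.

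Cxcl12, the stromal ligand of CXCR4, was measured by 3 probes on 4 spots per array. The probes' signals lay between 3.70 and 5.62 on the 4 arrays, and no spot was well above background. They read 0.207 to 0.287 times the dimmest detected probe.

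Across replicates, the mean deviation of both detected ligands, Cxcl2 and Cxcl16, was -0.30, -0.08, 0.19 and 0.19 in replicates 1 to 4. This pattern came from Cxcl2, whose deviations ran from -0.60 to 0.36, while those of Cxcl16 stayed between -0.04 and 0.04. Among 2156 detected genes with an SD of at least 0.5 times that of Cxcl2, those closest to it in their 4 deviations were Chd6, Slc38a2 and Brpf3, with root mean square differences of 0.024, 0.031 and 0.034 (log2). Those closest to Cxcl16 among 8680 genes were Sf3b2, Fam20b and Mapk8, with differences of 0.004, 0.009 and 0.009. With 4 replicates these are descriptions, and many genes can share such a pattern.

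Of 7 measured receptor genes 2 were detected (28.6%), against 52.5% of all named genes. Cxcr1 (level -3.29 ± 0.09, SD, n = 4) and Cxcr5 (-5.19 ± 0.29) passed the detection rule. Cxcr2, Cxcr3, Cxcr4, Cxcr6 and the atypical receptor gene Ackr3 passed it on no array. The receptors of Cxcl2, Cxcl10, Cxcl12 and Cxcl16 best known from other cells, CXCR2, CXCR3, CXCR4 and CXCR6, were thus all among the undetected ones.

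In the list for NF-kB induction of CXC ligands, 12 of 14 measured genes were detected (85.7%), against 52.5% of all named genes. Their median SD was 0.150, against 0.151 over all detected genes. Tlr2, which encodes a receptor for bacterial lipopeptides, was at -1.54 in replicate 1 and at 0.17, 0.35 and 0.33 in replicates 2 to 4. Tlr4, the lipopolysaccharide receptor gene, was at -3.32 ± 0.12 (SD, n = 4). The cytokine gene Tnf read 1.29, 1.02, 1.80 and 1.73 in replicates 1 to 4, and Il1b read 1.63, 1.68, 1.20 and 1.16. Tnf was thus higher in replicates 3 and 4, where Cxcl2 was high, and Il1b was lower there. These genes were picked from the list after their values were seen, and none passed the variance test (limma, adjusted p = 0.233 for Tlr2 and 0.969 for Tnf and for Il1b). The undetected genes of that list were the receptor gene Il1r1 and Zfp36, whose protein speeds decay of cytokine mRNAs.

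In the list for interferon induction of CXCR3 ligands, 12 of 14 measured genes were also detected (85.7%, against 52.5% of all named genes), with a median SD of 0.139. They included the receptor genes Ifnar1, Ifngr1 (1.72 ± 0.06, SD, n = 4) and Ifngr2 and the transcription factor gene Irf1 (0.23 ± 0.15). The exceptions were the interferon genes themselves, Ifnb1 and Ifng, which passed the rule on no array. Of 8 genes for proteases that shed or cleave CXC ligands, 5 were detected (62.5%), near the 52.5% over all named genes. Among them were Adam10 (-4.42 ± 0.16), which sheds CXCL16 in human and mouse cells, and Adam17 (-2.81 ± 0.17). Dpp4, Mmp8 and Ctsg were not.

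**Figure D5:**
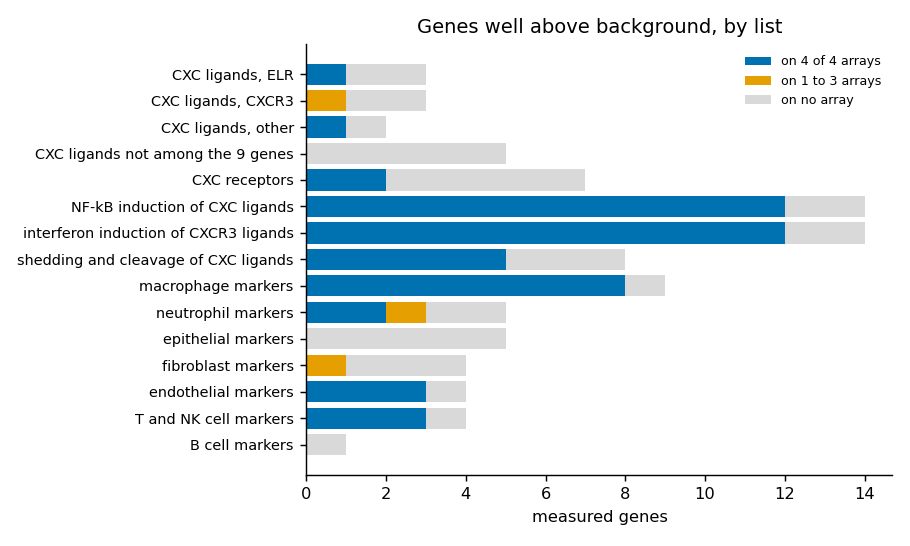
Number of measured genes in each list that were well above background on 4 of 4 arrays (blue), on 1 to 3 arrays (orange) or on none (grey). The lists for NF-kB and interferon induction have 12 of 14 genes in blue, and the top 3 bars hold the 8 measured CXC ligand genes, with 2 in blue.

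The labelled cell type was checked on its markers. Of 9 measured macrophage markers, 8 were detected (88.9%, against 52.5% of all named genes), including Cd68, Csf1r and Spi1, and Marco was not. Over 6 lists of markers of other cell types, 8 of 23 measured genes were detected (34.8%). They were S100a8 and Camp of neutrophils, Pecam1, Cdh5 and Vwf of endothelium, and Cd3d, Nkg7 and Gzmb of T and NK cells. The endothelial list and the T and NK cell list, with 4 measured genes each, both had 75% detected, above the share of all named genes. Vwf, at 1.87 ± 0.15 (SD, n = 4), was above Csf1r (-1.28 ± 0.13) and Spi1 (0.89 ± 0.19) and below Cd68 (3.04 ± 0.09). No epithelial, fibroblast or B cell marker was detected on all arrays. The part of other cell types in these levels was not tested. The arrays detected 19143 to 19311 of 45598 probes, and no spot was saturated. The number of arrays limits the precision.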

How the data were processed

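Total RNA was measured on 1-colour (Cy3) Agilent rat arrays, 1 per sample. The deposited intensity is the processed signal, which Agilent Feature Extraction subtracts for background and detrends spatially, per the file headers. The submitters' processing notes name version 11.0.1.1, and no source used here names a scaling between arrays. Control spots were left out, as were nonuniform spots and population outliers, and log2 signals of replicate spots were averaged. Each array was scaled to its 75th percentile over probes detected on all arrays (39.3% of probes). Accessions were matched without versions to RefSeq (GRCr8), which named 21109 of 45598 probes. A gene's level came from its brightest detected probe, or its brightest probe where none was detected. The variance test ran in R 4.3.3 over 8713 genes with limma 3.58.1 (intercept, intensity trend), with an adjusted p threshold of 0.05. The script was tested on simulated data. Motifs and figures used Python 3.11.15 and matplotlib 3.10.9.

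The members and lists were chosen with earlier results of these data known. Genes outside the members are named from these lists, as the 3 nearest in replicate pattern, or where the text says otherwise. All arrays come from 1 group, so no comparison between groups was made. Effects of slide or scan could not be tested. The design text calls the replicates biological and does not say what was separate between them, so p-values may measure only the spread between these samples. Alternatives were other detection rules, scalings, background correction, flags, probe choice, variance models, correction by neighbouring spots and leaving out each replicate.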

Additional observations from a re-analysis of the deposited data

Results flagged for a closer look

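Dixon's outlier ratio, the gap to the nearest value over the whole range, was computed for 11 quantities with 1 value per replicate. It passed its critical value for 3 of them. Chance gives about 1 in 20, but the Cxcl10 spot and the nonuniform spots were already known to stand apart, so their ratios are descriptions and not independent of that. The Cxcl6 level stood apart in replicate 2 (ratio 0.906), at -6.55 against -8.74, -8.96 and -8.97 in replicates 1, 3 and 4, with no replicate well above background. The Cxcl10 level, with its nonuniform spot kept, stood apart in replicate 1 (ratio 0.893), at 3.38 against 0.57, 0.34 and 0.23. The number of nonuniform spots stood apart in replicate 1 (ratio 0.963), at 28 against 1, 2 and 2. The Cxcl10 spot is 1 of these 28, so both of these concern the same array.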

How the results depend on the processing

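Cxcl2 and Cxcl16 were detected under each of the 9 other rules tried; 3 members were detected under 5 of them, with Cxcl10 as the third under 4 and Cxcl9 under the flag for positive and significant signal. Cxcl2 and Cxcl16 passed the variance test under none of 13 alternatives, with adjusted p from 0.626 to 0.974 for Cxcl2 and from 0.993 to 1 for Cxcl16 (limma). That test asks only for a spread above the expected one, so it says nothing about the small spread of Cxcl16. The count of variable genes over the whole array was unstable: 1 gene in the main setting (limma), 9 with the percentile over all probes, 4 with flagged spots kept, and 0 with quantile normalization, correction by neighbouring spots, no filter on dim probes or no intensity trend. Leaving out 1 replicate gave 0 to 9 genes, with 0 without replicate 1 or 2 and 9 without replicate 3 or 4. Settings with 0 genes had 349 (quantile normalization), 381 (correction by neighbouring spots), 915 (no filter), 349 (no trend), 393 (without replicate 1) and 378 (without replicate 2) at an unadjusted p under 0.05, against 375 in the main setting. Tlr2 was among the 9 genes each time. The range over replicates of the mean deviation of the detected ligands was 0.49, and 0.79 with flagged spots kept, where Cxcl10 enters. Without 1 replicate it ran from 0.10 to 0.49, and the lowest value came without replicate 1, which holds the lowest Cxcl2 value and lets Cxcl10 enter. The cause of the other changes was not tested. Without replicate 1 the Cxcl2 SD was 0.27, against 0.45. No paired analysis was possible because there is only 1 group. Levels are relative to the scaling: over all probes and to the median, they were 3.41 and 2.29 for Cxcl2, 1.19 and 0.07 for Cxcl16, and 3.90 and 2.78 for Cxcl10, against -0.12, -2.33 and 0.38 in the main setting. The Cxcl16 SD ran from 0.02 to 0.07 over the alternatives. Dim signal limits the account of Cxcl1, Cxcl6, Cxcl9, Cxcl11 and Cxcl12.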

Other observations

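Further CXC ligand genes outside the 9 were also dim. Pf4 and Ppbp, the platelet chemokine genes, lie beside Cxcl3 and Cxcl6 in the gene order of chromosome 14. Neither was well above background on any array, and the same held for Cxcl13, Cxcl14 and Cxcl17, which makes 5 of 5 measured genes. Of all 16581 named genes, 6971 were likewise detected on no array.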
